A study of Mus musculus with 9 samples.

Results

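The genes described here are 10 genes of mouse chromosome 17, the chromosome that carries Fkbp5, whose expression in stressed Fkbp5-/- mice departed from that in wild-type mice. They were picked by name from the 24532 listed genes after FPKM values (fragments scaled for the length of the transcript and the depth of the library) of the knockout group had been seen to lie apart from the wild-type groups, so their values in the knockout group are given as a description and are not tested. Of the 1187 listed genes on chromosome 17, 694 averaged at least 30 reads per mouse and entered the tests, all 10 members among them.

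RNA was sequenced from the prefrontal cortex of 9 male mice of the C57BL/6 strain, 11 weeks old by the sample labels, in 3 groups of 3 mice with one library each. CT mice were wild type and stayed unstressed. WT_ST mice were wild type and went through daily restraint over several weeks. KO_ST mice were homozygous for the Fkbp5-/- allele and went through the same restraint, and no unstressed knockout group was sequenced. By the study's methods the knockout line came from a repository, had been bred to C57BL/6J over many generations, and all mice descended from matings of heterozygotes. The Fkbp5-/- allele and any chromosome 17 sequence inherited with it cannot be told apart in this design.

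Fkbp5 encodes a co-chaperone that binds the glucocorticoid receptor complex and lowers its response to stress hormone, and glucocorticoids in turn raise Fkbp5 transcription. Genes that lie near each other on a chromosome tend to be inherited together. The segment near the centromere of mouse chromosome 17, known as the t complex, holds several gene families as near-identical copies, and the dynein light chains of the Dynlt1 family were first described there under the name Tctex.

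The targeted gene was lowest in the mice labelled as knockout. Fkbp5 stood at 7.61, 6.46 and 7.28 FPKM in the CT mice and at 9.83, 9.47 and 10.3 FPKM in the WT_ST mice. In the KO_ST mice it stood at 3.59, 4.69 and 4.45 FPKM, from 625, 855 and 907 reads, so every knockout mouse was below every wild-type mouse and transcripts of the locus were still counted. The KO_ST mean was 0.50 of the wild-type mean. These counts run over the whole gene, so they do not check the deleted part or whether both alleles carried the deletion. Fkbp5 was lower in KO_ST than in WT_ST by a log2 fold change of -1.04 ± 0.0866 (SE; limma adjusted p = 0.00908, n = 3 per group), and every alternative kept the direction. The adjusted p was over 0.05 without WT_ST replicate 2 (limma, 0.0531), with no filter (limma, 0.0731), with the replicate block (limma, 0.0921) and with the unmoderated test (0.251). The differences of KO_ST from CT (-0.60 ± 0.0989, limma adjusted p = 0.217) and of WT_ST from CT (0.44 ± 0.0703, limma adjusted p = 0.267) did not pass the adjusted threshold of 0.05, but both did with DESeq2 (adjusted p = 1.25e-05 and 0.000112).

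On the GRCm38 assembly 7 members lie within a short stretch near the start of the chromosome, below Fkbp5 (28398753 to 28486149). In chromosome order they are Tmem181a (6256726 to 6308314), Dynlt1b (6429530 to 6440500), Tmem181b-ps (6439002 to 6450994), Tmem181c-ps (6610103 to 6620925), Rsph3b (6904716 to 6948356), Rps6ka2 (7088971 to 7303315) and Fndc1 (7738569 to 7827340). Smoc2 (14279490 to 14404790) and Decr2 (26081208 to 26090322) lie farther along, and Glo1 (30592861 to 30612659) lies on the other side of Fkbp5. Decr2 starts 2.32 Mb below the start of Fkbp5 and Glo1 2.19 Mb above it, whereas the first member, Tmem181a, starts 22.1 Mb away. The annotated spans of Tmem181b-ps and Dynlt1b share 1499 bases, those of Tmem181a and Dynlt1a share 1971 bases, and Smoc2 shares 9836 bases with 4930474M22Rik.

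The Tmem181, Rsph3 and Dynlt1 families are sets of near-identical copies, and this bears on what a read count of one copy means. Aligned transcript to transcript, Tmem181a and Tmem181b-ps were identical at 1659 of 1673 bases (99.16%), and Tmem181a and Tmem181c-ps at 1329 of 1338 bases (99.33%). Over the stretch of 60 coding bases within a single exon of Tmem181a that held the most differences among the 3 copies, only the positions in capitals differed. The stretches are chr17:6298164-6298223 (plus strand) for Tmem181a, chr17:6448542-6448601 (minus strand) for Tmem181b-ps and chr17:6620305-6620364 (minus strand) for Tmem181c-ps.
Tmem181a: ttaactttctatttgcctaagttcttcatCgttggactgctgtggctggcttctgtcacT
Tmem181b-ps: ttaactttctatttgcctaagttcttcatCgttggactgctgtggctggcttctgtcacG
Tmem181c-ps: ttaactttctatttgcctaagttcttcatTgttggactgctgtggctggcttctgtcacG

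Rsph3b and its copy Rsph3a were identical at 2171 of 2189 aligned bases (99.18%). Their most different stretch, again with the differing bases in capitals, lies at chr17:7946017-7946076 (plus strand) in Rsph3a and at chr17:6948205-6948264 (minus strand) in Rsph3b.
Rsph3a: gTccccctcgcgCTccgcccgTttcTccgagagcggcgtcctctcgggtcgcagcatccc
Rsph3b: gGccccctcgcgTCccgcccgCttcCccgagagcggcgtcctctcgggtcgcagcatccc

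The Dynlt1 family has 4 copies in this stretch, and Dynlt1b was identical to Dynlt1a at 98.83% of aligned bases. No stretch chosen in the same way held a difference, and the one printed here, at chr17:6435897-6435956 (plus strand) in Dynlt1b, is the same in all 4 copies.
Dynlt1b: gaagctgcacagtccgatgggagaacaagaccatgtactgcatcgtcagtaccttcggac

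Of the 100-base windows of each member's annotated transcripts, the share that also occurs in a transcript of another gene was 82.0% for Dynlt1b, 51.7% for Tmem181c-ps, 51.3% for Rsph3b, 33.3% for Tmem181b-ps and 19.2% for Tmem181a. It was 11.7% for Rps6ka2 and 2.25% for Glo1, and no window of Fndc1, Decr2 or Smoc2 was shared. How reads that match several copies were assigned is not given in the sources used here. The values of single copies in the Tmem181, Dynlt1 and Rsph3 families are therefore uncertain, and their family totals are given beside them. The Dynlt1 total leaves out Dynlt1-ps1, in which 33.0% of the Dynlt1b windows also occur.

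Tmem181a encodes a multi-pass membrane protein, and Tmem181b-ps and Tmem181c-ps are annotated as transcribed pseudogenes. Tmem181b-ps had the largest change among the members. It stood at 39.7, 40.6 and 38.8 FPKM in CT, at 33.4, 37.9 and 37.9 FPKM in WT_ST, and at 1.86, 2.1 and 2.0 FPKM in KO_ST. Over all wild-type mice it had the highest mean of the members, but in WT_ST its mean of 36.4 FPKM was just below that of Glo1 (36.7). In every knockout mouse it was near the bottom of the members, and its KO_ST mean was 19.2-fold lower than the wild-type mean. On the log2(FPKM + 1) scale used for the fits the difference was -3.76 ± 0.0574 (SE) from CT and -3.63 ± 0.0723 from WT_ST.

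Tmem181c-ps moved the same way from a lower level. It stood at 4.68, 5.21 and 5.06 FPKM in CT, at 4.25, 4.96 and 4.70 FPKM in WT_ST, and at 1.96, 2.05 and 2.09 FPKM in KO_ST, a 2.37-fold difference between wild-type and knockout means. Tmem181a, the copy annotated as protein coding, stood at 22.8, 23.8 and 22.8 FPKM in CT and at 23.2, 22.6 and 23.5 FPKM in WT_ST. Its KO_ST values of 18, 17.3 and 17.5 FPKM were all below the wild-type range but were still 0.761 of the wild-type mean, the smallest change of the 9 members whose KO_ST mice lay outside the wild-type range (log2 fold change -0.36 ± 0.0456 from CT and -0.36 ± 0.0408 from WT_ST).

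Summed over the 3 copies and scaled to the reads counted in each library (RPM), Tmem181 was at 316 ± 7.4 RPM (SD, n = 3) in CT, 299 ± 13.7 in WT_ST and 97.4 ± 0.546 in KO_ST. The family total was therefore lower in the knockout mice too, and not only the reads given to one copy. The copies' shares of that total also differed. Tmem181b-ps took 60.5% ± 0.471 of the family's reads in CT, 58.7% ± 1.58 in WT_ST and 9.85% ± 0.652 in KO_ST, while Tmem181a took 33.0% ± 0.174, 34.9% ± 1.79 and 81.5% ± 0.952.

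**Figure D1:**
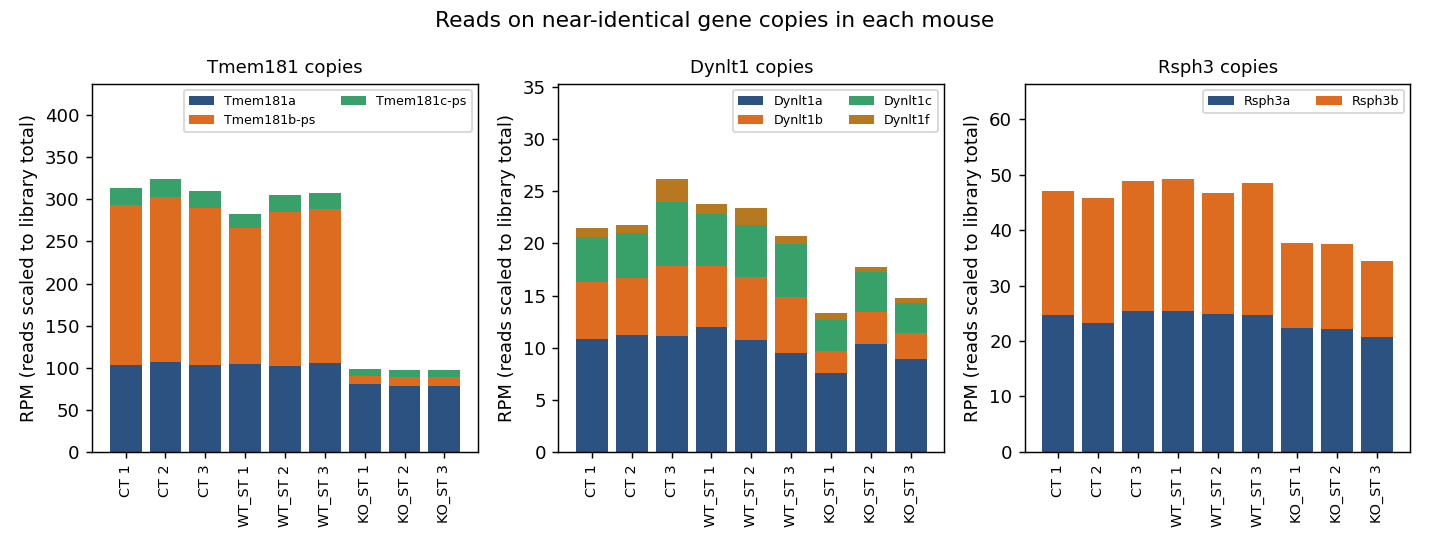
Reads scaled to the library total (RPM) on each copy of the Tmem181, Dynlt1 and Rsph3 families, stacked, in each of the 9 mice (bars; x axis, group and replicate). The Tmem181 total is between 97.0 and 98.0 in the KO_ST mice and between 283 and 324 in the wild-type mice, and the orange Tmem181b-ps segment makes up most of the difference.

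Dynlt1b encodes a Tctex-type light chain of cytoplasmic dynein, the motor that carries cargo toward the minus ends of microtubules. It stood at 6.94, 6.94 and 8.49 FPKM in CT, at 7.32, 7.69 and 6.85 FPKM in WT_ST, and at 2.70, 3.95 and 3.16 FPKM in KO_ST. All knockout values were below all wild-type values, by 2.25-fold on average (log2 fold change -0.96 ± 0.124 from CT and -0.95 ± 0.113 from WT_ST). The total over the 4 Dynlt1 copies was 23.2 ± 2.6 RPM in CT, 22.6 ± 1.68 in WT_ST and 15.3 ± 2.3 in KO_ST.

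Each of the other copies was measured as well. Dynlt1c was at 6.12 to 8.66 FPKM over the wild-type mice and at 4.2, 5.41 and 4.02 FPKM in KO_ST. Dynlt1f, counted from only 22 to 108 reads, was at 0.921 to 2.66 FPKM against 0.744, 0.558 and 0.603 FPKM. Both were lower in KO_ST in both comparisons by the study's call rule, an unadjusted p under 0.05 with a fold change above 1.2. In the main limma fits the lowest adjusted p for either was 0.324, for Dynlt1c against WT_ST. Without KO_ST replicate 2 that limma adjusted p was 0.0415. Dynlt1a, at 1.87 to 2.37 FPKM in wild-type mice and at 1.49, 2.04 and 1.77 FPKM in KO_ST, overlapped between the groups.

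Rsph3b encodes a radial spoke protein, part of the structure that regulates the beat of motile cilia and flagella. It stood at 13.5, 13.6 and 14.3 FPKM in CT, at 14.4, 13.3 and 14.4 FPKM in WT_ST, and at 9.36, 9.17 and 8.32 FPKM in KO_ST. The knockout mice were all lower, with a log2 fold change of -0.54 ± 0.0619 from CT and -0.58 ± 0.0634 from WT_ST. With Rsph3a added, the pair was at 47.2 ± 1.61 RPM in CT, 48.1 ± 1.29 in WT_ST and 36.5 ± 1.74 in KO_ST, and the share of Rsph3b was 48.3% ± 0.792, 48.0% ± 1.02 and 40.5% ± 0.625. For the markers of ependyma, the ciliated lining of the ventricles, the summed FPKM of Foxj1, Ccdc153 and Tmem212 was 0.224 to 0.413 in CT, 0.795 to 1.5 in WT_ST and 0.613 to 2.17 in KO_ST. By the call rule 1 of these 3 markers was called in WT_ST against CT, 1 in KO_ST against CT and 0 in KO_ST against WT_ST, and their part in the Rsph3b values was not tested.

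Rps6ka2 encodes a kinase of the RSK family, which ERK activates downstream of growth factor receptors. It stood at 24.5, 24.2 and 23.4 FPKM in CT, at 21.6, 22.2 and 23.6 FPKM in WT_ST, and at 13.3, 14.6 and 14.3 FPKM in KO_ST. The groups of wild-type mice overlapped and the knockout mice lay below them by 1.65-fold, or by a log2 fold change of -0.72 ± 0.0562 from CT and -0.62 ± 0.0590 from WT_ST.

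Fndc1, which encodes a protein with fibronectin-type domains, was the least abundant member and moved the opposite way. It stood at 0.602, 0.716 and 0.633 FPKM in CT, at 0.547, 0.545 and 0.476 FPKM in WT_ST, and at 1.73, 2.11 and 1.67 FPKM in KO_ST. All knockout mice were above all wild-type mice, by 3.13-fold on the FPKM scale. The log2 fold changes of 0.81 ± 0.0828 from CT and 0.90 ± 0.0778 from WT_ST are smaller than that because 1 FPKM was added before taking logs; across the other settings they ranged from 0.74 to 1.52 and from 0.84 to 1.82.

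Decr2 encodes the peroxisomal dienoyl-CoA reductase, an enzyme needed to break down unsaturated fatty acids. It stood at 15.9, 15.6 and 16 FPKM in CT, at 16.8, 15.8 and 15.7 FPKM in WT_ST, and at 8.75, 8.74 and 8.86 FPKM in KO_ST. The spread within the knockout group was 0.0651 FPKM (SD), and the knockout mean was 0.55 of the wild-type mean (log2 fold change -0.76 ± 0.0479 from CT and -0.79 ± 0.0494 from WT_ST).

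Glo1 encodes glyoxalase, which detoxifies methylglyoxal, a by-product of glycolysis. It stood at 36.0, 35.7 and 37.0 FPKM in CT, at 36.1, 36.7 and 37.4 FPKM in WT_ST, and at 72.8, 73.1 and 55.7 FPKM in KO_ST. The wild-type mice were close together, the knockout mice were all higher, and KO_ST replicate 3 was the lowest of those. The knockout mean was 1.84 times the wild-type mean (log2 fold change 0.86 ± 0.104 from CT and 0.85 ± 0.103 from WT_ST).

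Smoc2, which encodes a secreted calcium-binding matrix protein of the SPARC family, was the one member whose KO_ST values overlapped with those of wild-type mice. It stood at 16.9, 17.5 and 18.5 FPKM in CT, at 15.9, 11.4 and 15.7 FPKM in WT_ST, and at 11.4, 11.5 and 11.8 FPKM in KO_ST. WT_ST replicate 2 sat with the knockout mice, and all other wild-type mice lay above them. The difference of KO_ST was -0.55 ± 0.0525 on the log2 scale from CT and -0.25 ± 0.118 from WT_ST, and the latter was -0.40 without WT_ST replicate 2.

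**Figure D2:**
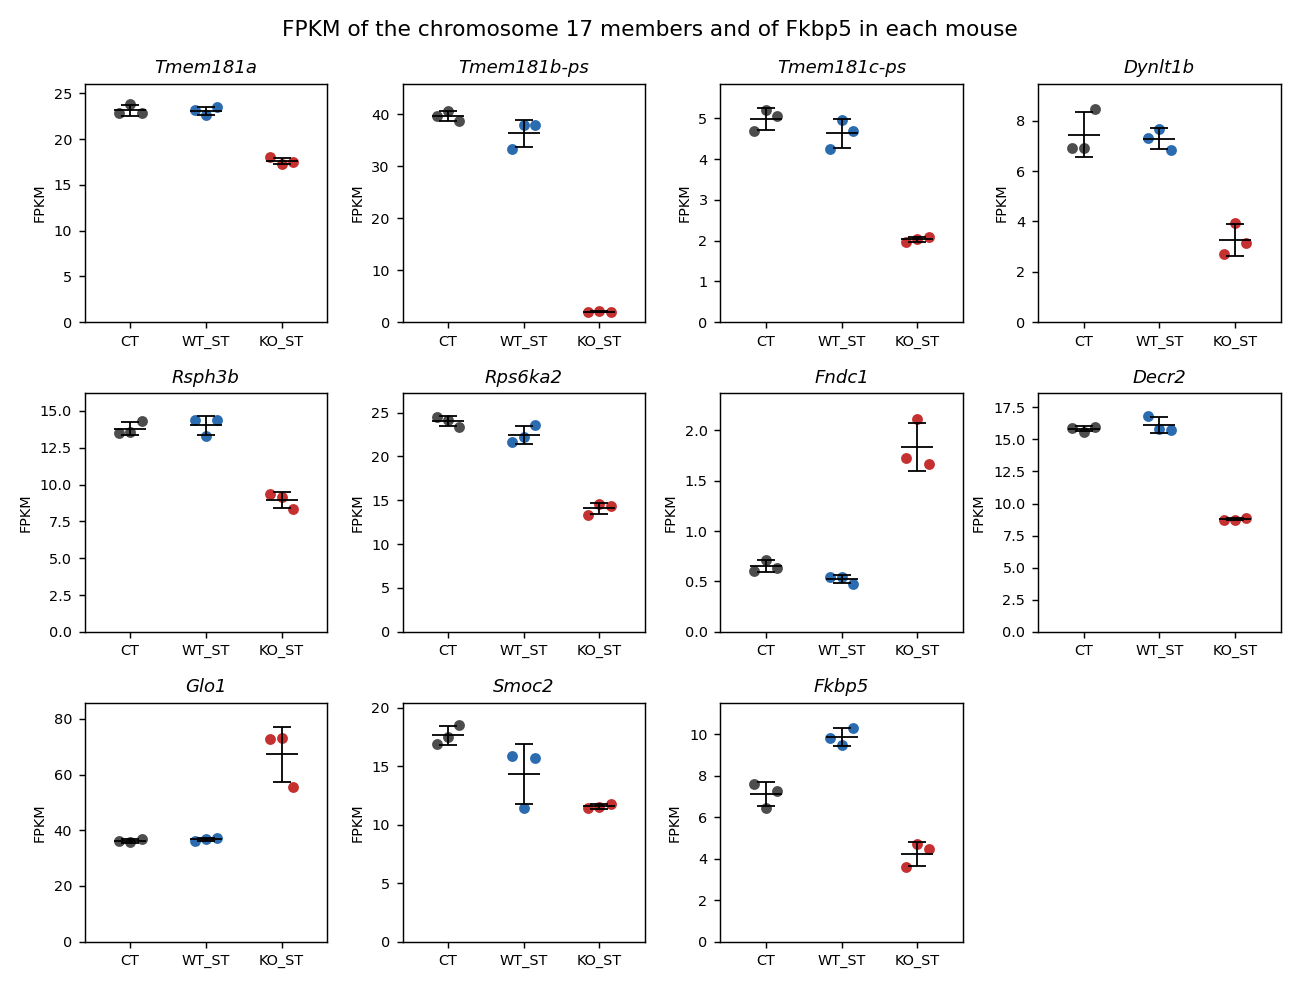
FPKM of the 10 members and of Fkbp5 (y axes, each from 0) in each mouse of CT, WT_ST and KO_ST (points), with the group mean and SD as bars, n = 3. The KO_ST points lie below all wild-type points in 7 members, above them in Fndc1 and Glo1, and overlap with 1 WT_ST mouse in Smoc2.

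In all, the KO_ST values lay outside the range of the 6 wild-type mice in 9 of the 10 members, lower in 7 and higher in 2. The same held for 3.82% of the 14370 tested genes. By the call rule 10 members were called in KO_ST against CT, where 3.56% of tested genes were called, and 9 in KO_ST against WT_ST, where 2.0% were called. At an adjusted p under 0.05 the counts were 6 members against a background of 0.0626% and 9 members against 0.153%. Those counts moved with the samples and the test: leaving out 1 mouse gave 3 to 5 and 3 to 6 members, the unmoderated test 2 and 2, the replicate block 1 and 1, and DESeq2 10 and 9. These contrasts chose the members, so nothing is read from the counts.

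The order of the members by level, which FPKM allows because it is per transcript length, differed between genotypes. In the wild-type mice Tmem181b-ps (mean 38.1 FPKM) and Glo1 (36.5) led with overlapping ranges, followed by Rps6ka2 (23.2) and Tmem181a (23.1), which overlapped as well. Decr2 (16) and Rsph3b (13.9) both overlapped with Smoc2 (16), and Dynlt1b (7.37), Tmem181c-ps (4.81) and Fndc1 (0.586) followed without overlap. In the knockout mice Glo1 (67.2 FPKM) stood alone at the top, Tmem181a (17.6) came next, and Tmem181c-ps (2.03), Tmem181b-ps (1.99) and Fndc1 (1.84) shared the bottom.

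The comparison of WT_ST with CT asks what restraint did in mice with an intact Fkbp5 gene, and it is the one contrast that the choice of members did not use directly. The choice set KO_ST against both wild-type groups, however, and so favoured genes whose wild-type mice share a level. Apart from Smoc2 their log2 fold changes lay between -0.13, for Tmem181b-ps, and 0.03, for Rsph3b, and the median of the 10 was -0.03 beside 0.0034 over all tested genes. CT and WT_ST overlapped in 7 members, and not in Tmem181b-ps, Fndc1 and Smoc2. The share over all tested genes was not counted, so nothing is read from this count.

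By the call rule 1 member was called between WT_ST and CT, where 2.47% of the tested genes were called. That was Smoc2, lower in WT_ST by a log2 fold change of -0.30 ± 0.12 (limma adjusted p = 0.635, from an unadjusted p of 0.0422), and without WT_ST replicate 2 it was -0.15. That call was also lost without CT replicate 1, 2 or 3, with no filter on low values, with edgeR on the filtered genes and with the unmoderated test, and it was kept with DESeq2 and with edgeR without a filter. At an adjusted p under 0.05 no member passed with limma, edgeR or DESeq2, while 5 tested genes (0.0348%) did with limma and 1129 had an unadjusted p under 0.05. The members' limma adjusted p-values ran from 0.635 to 0.994, and the lowest over all alternatives was 0.515. These values do not show that restraint left the members untouched.

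The members' neighbours tell how far along the chromosome the knockout group departed. Between the start of Tmem181a and Rsph3a 21 genes are listed, of which 7 are members, and 9 of the remaining 14 were tested. The KO_ST mice lay outside the wild-type range in 5 of these 9, against 3.82% of all tested genes, but 3 of the 5 (Dynlt1c, Dynlt1f and Rsph3a) are copies of members that share sequence with them. Of the 5 tested genes that are not copies of members, 2 were outside, Tagap and Tagap1. Whether these 2 share sequence with each other was not looked at. Tagap, a GTPase-activating protein of activated T cells, was higher, at 3.01, 2.92 and 3.30 FPKM against 1.70 to 2.08 FPKM in the wild-type mice. Dynlt1c, Dynlt1f, Tagap1 and Rsph3a were lower, and Ezr, Dynlt1a, Rnaset2b and Gm1604b overlapped.

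So among the tested genes higher and lower ones were neighbours. The nearest tested genes to Fndc1 (higher) are Rps6ka2 (lower) and Tagap (higher). Listed genes between Rps6ka2 and Fndc1 had too few reads to be tested. Tagap1 (lower) lies beside Rsph3b (lower), and was at 12.3, 12 and 11.6 FPKM in KO_ST against 14.1 to 14.8 FPKM in wild-type mice. Tulp4, the next tested gene below Tmem181a, ranged from 5.74 to 12.8 FPKM in wild-type mice and from 6.24 to 13.6 FPKM in KO_ST.

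Around Glo1 the next gene up, Dnah8, which encodes an axonemal dynein heavy chain, also stood higher in KO_ST. It was at 0.0349, 0.0503 and 0.0455 FPKM in CT, at 0.0532, 0.0481 and 0.0393 FPKM in WT_ST, and at 0.158, 0.183 and 0.104 FPKM in KO_ST, from 80 to 126 reads in the knockout mice and 26 to 40 in the wild-type mice. KO_ST replicate 3 was again the lowest knockout mouse, as for Glo1. Its log2 fold changes on the scale with 1 FPKM added were 0.15 and 0.14, under the fold threshold, a scale that shrinks differences at so low a level. On read counts DESeq2 gave Dnah8 log2 fold changes of 1.78 against CT and 1.66 against WT_ST (adjusted p = 0.000143 and 0.000404). Btbd9, the next tested gene on the side toward Fkbp5, was at 15.9 to 17.2 FPKM in wild-type mice and at 17.7, 19.3 and 17.1 FPKM in KO_ST, with overlap.

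Nme4, the tested gene beside Decr2, overlapped between all groups at 1.80 to 2.66 FPKM. Rab11fip3, on its other side, was at 34.7 and 33.9 FPKM in WT_ST replicates 1 and 3 and at 19.5 to 21.0 FPKM in the other wild-type mice. In KO_ST it was at 19.1, 16.8 and 18.7 FPKM, below every wild-type mouse. By the call rule it was lower in KO_ST than in WT_ST (log2 fold change -0.63, limma adjusted p = 0.706) but not called against CT (-0.13). Dact2 and Thbs2, on either side of Smoc2, overlapped between KO_ST and the wild-type mice, as Smoc2 itself did.

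**Figure D3:**
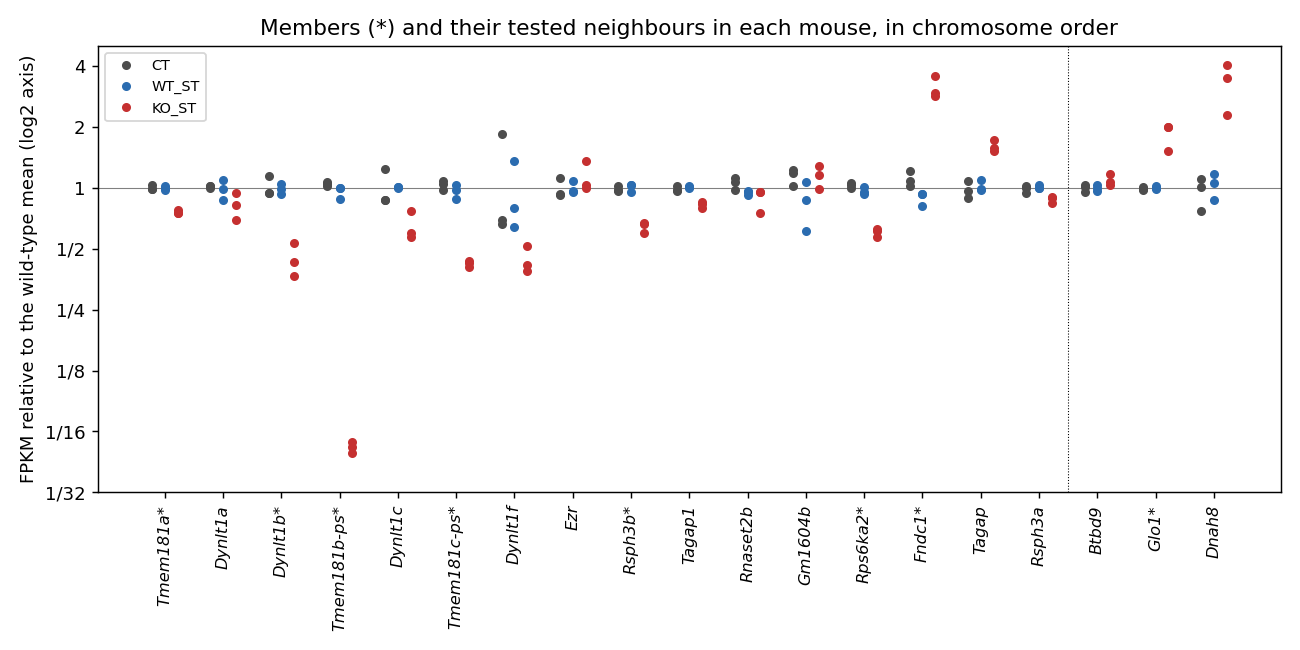
FPKM relative to the mean of the 6 wild-type mice (y axis, log2 scale) for the members near the start of the chromosome (asterisks), their tested neighbours and, right of the dotted line, Glo1 with its neighbours, in chromosome order; each point is 1 mouse. The KO_ST points (red) fall below the wild-type points for most genes from Tmem181a to Rsph3a, rise above them for Fndc1, Tagap, Glo1 and Dnah8, and overlap with them for Dynlt1a, Ezr, Rnaset2b, Gm1604b and Btbd9.

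Along the rest of chromosome 17, 683 tested genes are neither members nor Fkbp5. The KO_ST mice lay outside the wild-type range in 46 of them (6.73%), higher in 10 and lower in 36, against 3.60% of the 13676 tested genes with a position on other chromosomes. By position of the gene start, the share was 6 of 23 genes (26.1%) between 5 and 10 Mb, 2 of 123 (1.63%) between 10 and 25 Mb, 27 of 207 (13.0%) between 25 and 35 Mb, which spans Decr2, Fkbp5 and Glo1, and 11 of 325 (3.38%) from 35 Mb on. Within the stretch from 25 to 35 Mb the share was 12 of 101 genes (11.9%) up to 30 Mb and 15 of 106 (14.2%) beyond. The part beyond 30 Mb also holds H2 genes of the major histocompatibility complex, such as H2-K1 and H2-Ab1. Their part in the share was not tested. Of the 6 genes between 5 and 10 Mb, 3 are the copies Dynlt1c, Dynlt1f and Rsph3a. Their reads cannot be fully told apart from those of members. Leaving out all copies of members, a choice made after seeing the data, gave 3 of 19 genes (15.8%). Without each KO_ST mouse in turn it gave 3 to 5 of 19. Tagap and Tagap1 stayed in, and sequence shared between them was not looked at. The low share of the stretch that holds Smoc2 rose to 8.13% against 8.49% elsewhere without KO_ST replicate 2. These bounds were chosen with the members' positions known, and no test was made of the difference.

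With only 2 knockout mice to lie outside the range, all shares were higher. Without KO_ST replicate 3 they were 34.8%, 3.25%, 26.6% and 11.1% in the same order, with 10.8% on other chromosomes. Without KO_ST replicate 1 they were 30.4%, 5.69%, 18.4% and 7.08%, with 8.15% elsewhere, and without KO_ST replicate 2 they were 30.4%, 8.13%, 15.9% and 7.38%, with 8.49% elsewhere. In the comparison of KO_ST with CT, 30 non-members of the chromosome were called (4.39%, against 3.44% on other chromosomes), and in that with WT_ST 20 were (2.93% against 1.88%). Between WT_ST and CT the count was 8 (1.17% against 2.52%). That count was 18 with a pseudocount of 0.1, 19 with edgeR, 20 with DESeq2 and 27 with edgeR and no filter. It was 2 with the unmoderated test and 8 to 23 leaving out 1 mouse. None of the non-members had a limma adjusted p under 0.05 in either knockout comparison as fitted here, where 1359 and 837 of all tested genes had an unadjusted p under 0.05; DESeq2 had 7 and 8 of the non-members under that adjusted p and edgeR none. Ip6k3 passed in both comparisons with limma without a filter (adjusted p = 0.0361 and 0.0332) and with all 9 mice in one fit (0.0175 and 0.0411). Leaving out 1 mouse, limma's adjusted p was also under 0.05 for Slc8a1 against CT without KO_ST replicate 3 (0.00215), and against WT_ST for Rab11fip3 without WT_ST replicate 2 (0.0202) and Dynlt1c without KO_ST replicate 2 (0.0415). These 4 genes are named for those values.

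**Figure D4:**
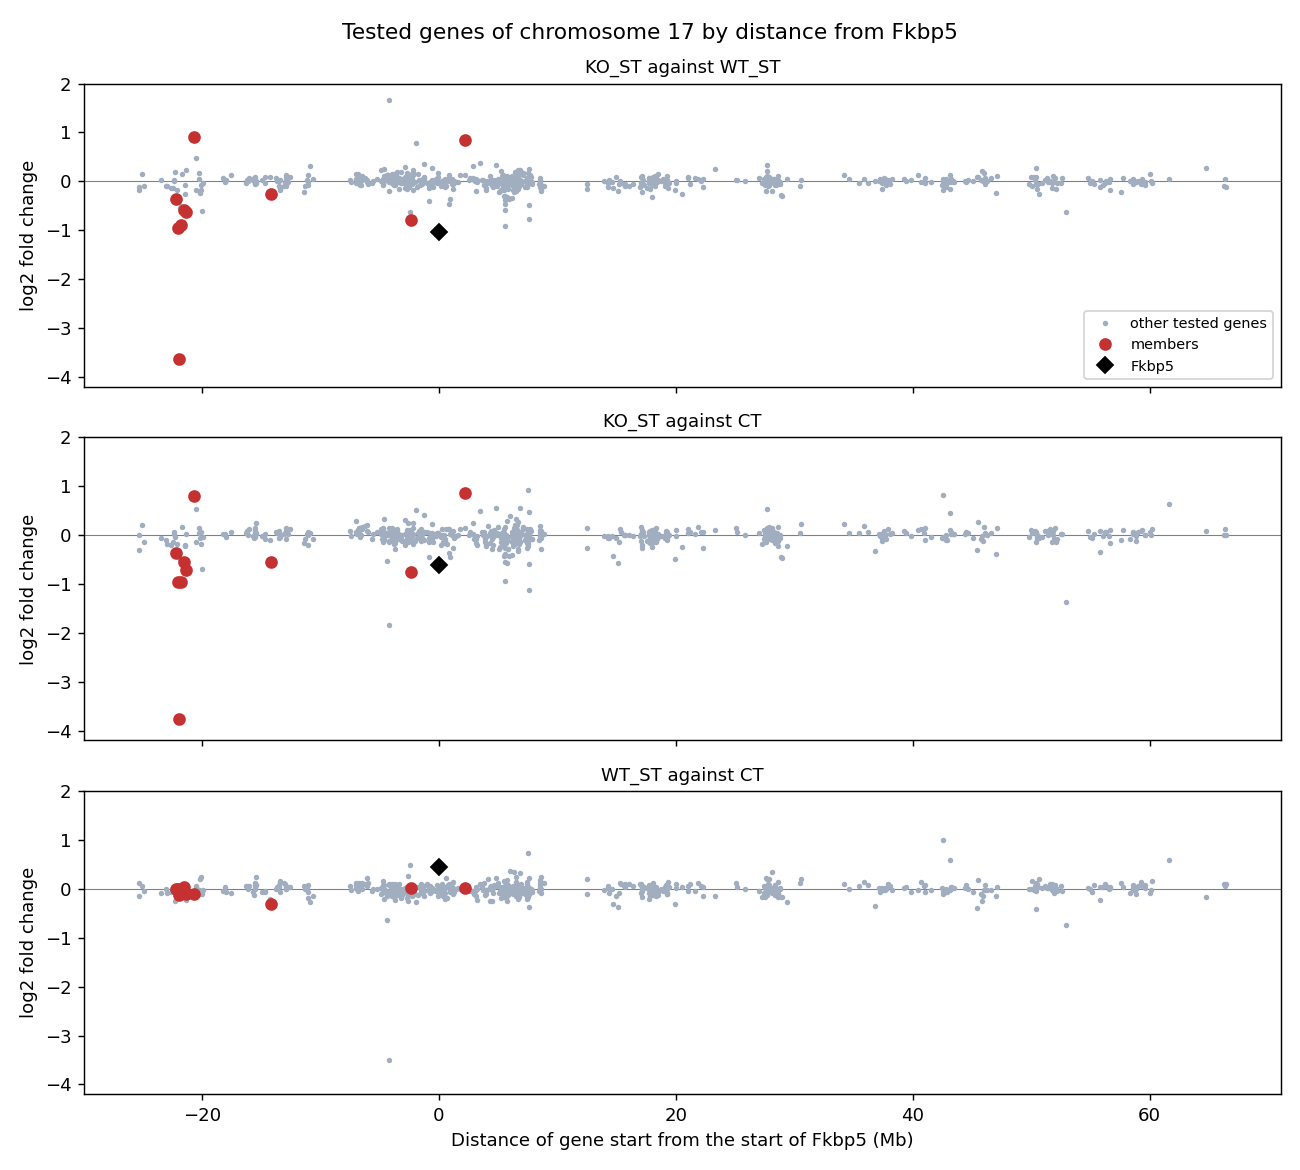
Log2 fold change (y axis) of each tested chromosome 17 gene against the distance of its start from that of Fkbp5 in Mb (x axis), for KO_ST against WT_ST, KO_ST against CT and WT_ST against CT; red points are the members, the black diamond is Fkbp5. In the knockout comparisons the members lie apart from 0 except for Smoc2 against WT_ST, which is closest to it (-0.25 ± 0.118, SE, not called). In WT_ST against CT the members lie between -0.30 and 0.03.

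Called in the same direction in both knockout comparisons, which share the KO_ST mice, were 13 of the non-members (1.90%), 11 of them below 35 Mb; on other chromosomes it was 0.636% of tested genes, and no other chromosome exceeded 1.22%. The largest of these was Gm16702, a long non-coding RNA just past the cluster of 7 members, at 0.895 to 1.38 FPKM in wild-type mice and at 0.469, 0.193 and 0.329 FPKM in KO_ST. Dynlt1f, Dynlt1c, Hmga1, Ppil1, Fgd2, Gpsm3 and Vav1 were lower as well, and Tagap, Sik1, Ip6k3, Plin4 and Sox8 were higher. Dynlt1c and Dynlt1f are copies of a member, and in Hmga1, Vav1, Plin4 and Sox8 the KO_ST mice overlapped the wild-type mice.

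Hmga1 encodes a chromatin protein and Ppil1 a spliceosomal cyclophilin. Ppil1, between Fkbp5 and Glo1, was at 9.16, 10.9 and 7.85 FPKM in KO_ST against 12.2 to 13.6 FPKM in wild-type mice. Sik1, a salt-inducible kinase gene beyond Glo1, was at 2.68, 3.10 and 2.37 FPKM against 1.41 to 1.98 FPKM. Gpsm3, a gene active in immune cells, was at 0.266, 0.390 and 0.664 FPKM against 0.683 to 1.25 FPKM, and Fgd2 was at 0.988, 1.11 and 1.72 FPKM against 1.78 to 2.54 FPKM.

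Microglial markers moved between the groups as well: the summed FPKM of Cx3cr1, P2ry12, Csf1r and Tmem119 was 71.5 to 86.2 in CT, 53.3 to 62.9 in WT_ST and 27.1 to 62.3 in KO_ST, all 4 were called as lower in WT_ST and in KO_ST than in CT, and 1 was called between KO_ST and WT_ST. The part of microglia in the lower Gpsm3, Fgd2 and Vav1 values, and in any member, was not tested. In bulk tissue fewer cells of a type and less RNA per cell cannot be told apart. Neuronal markers summed to 2106 to 2512 FPKM in CT, 2574 to 2802 in WT_ST and 2603 to 2779 in KO_ST, so every stressed mouse was above every CT mouse, with none of the 5 called. Endothelial markers were at 30.7 to 36.0 in CT, 24.5 to 29.7 in WT_ST and 22.5 to 28.3 in KO_ST, again without overlap between CT and the stressed groups, and 1 of 3 was called against CT in each. In both lists KO_ST overlapped with WT_ST. The sums for astrocytes (154 to 204), oligodendrocytes (396 to 754), choroid plexus (0.400 to 1.06), meningeal fibroblasts (5.68 to 10.5), blood (1.09 to 374) and striatal neurons (29.4 to 49.3) overlapped between KO_ST and each wild-type group. Of their genes 2 astrocyte and 2 striatal markers were called between WT_ST and CT, and 1 striatal and 1 fibroblast marker between KO_ST and CT. No marker of any of the 10 lists was at 0, and the part of these cell types in the members' values was not tested.

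The gene whose pattern over the 9 mice was most like that of a member, by the absolute Pearson correlation of normalized log2 values, was Ip6k3 for 5 members. Ip6k3, an inositol phosphate kinase gene between Decr2 and Fkbp5, was at 0.203 to 0.288 FPKM in wild-type mice and at 0.562, 0.587 and 0.645 FPKM in KO_ST, and r was -0.991 with Tmem181c-ps, -0.989 with Tmem181b-ps, -0.982 with Decr2, -0.975 with Tmem181a and -0.973 with Rps6ka2. Dnah8 was the closest to Glo1 (r = 0.976). Genes of other chromosomes were closest to the rest, namely Sgsm1 for Dynlt1b (0.976) and Rsph3b (0.974), Zswim3 for Fndc1 (0.959) and 4632415L05Rik for Smoc2 (-0.964). The mice of a group share their genotype and treatment, and these values only describe which genes separated the groups in a like way.

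Across the lists of family copies and pathways, 48 genes that are not members were tested. By the call rule 0 were called between WT_ST and CT, 4 between KO_ST and CT (8.33%, beside 3.56% of all tested genes) and 2 between KO_ST and WT_ST (4.17% beside 2.0%), none with a limma adjusted p under 0.05. Dynlt1c and Dynlt1f, the copies of a member, made up 2 of the 4 and both of the 2. Among the 12 tested cytoplasmic dynein genes other than Dynlt1b, the called ones were Dynlt1c and Dynlt1f (both lower in both knockout comparisons) and Dynlt3, another Tctex-type light chain, which was higher in KO_ST than in CT by a log2 fold change of 0.28 (limma adjusted p = 0.498). The heavy chain Dync1h1 was at a mean of 58.9 FPKM in CT, 59.8 in WT_ST and 63.2 in KO_ST. Of 4 tested radial spoke genes none was called.

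Of 10 tested ERK and RSK kinase genes, Mapk3 was called lower in KO_ST than in CT (-0.30, limma adjusted p = 0.443), and the close relatives Rps6ka1, Rps6ka3 and Rps6ka6 had log2 fold changes of -0.16, 0.01 and 0.05 in that comparison, where Rps6ka2 was at -0.72. None of 10 peroxisomal beta-oxidation genes was called; the enzymes Hsd17b4 and Pecr were both at 0.03 in KO_ST against CT beside -0.76 for Decr2. None of 5 methylglyoxal genes was called, and Hagh, which completes the glyoxalase reaction, was at 0.12 beside 0.86 for Glo1. None of 7 SPARC family genes was called either, with Sparc itself at -0.43 and Smoc1 at -0.12 beside -0.55 for Smoc2. The differences between members and partners were not tested.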

How the data were processed

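RNA was taken from the medial prefrontal cortex of 9 mice, and libraries were made with a stranded mRNA kit. The authors aligned reads to GRCm38 (mm10) with HISAT2 2.1.0, which uses Bowtie2 2.3.4.1, and quantified them with StringTie 1.3.4d (versions from the submitters' processing notes). The authors deposited read counts per gene, not normalized, and FPKM values, which divide by transcript length and library depth. How multi-mapped reads and strand were counted is not given in the sources used here. Depth was 43778471 to 61150128 reads per mouse.

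Genes averaging at least 30 reads (14370) were tested on quantile-normalized log2(FPKM + 1) for each pair of groups with limma 3.58.1 (R 4.3.3), with Benjamini-Hochberg adjustment over all tested genes. The study's call rule was kept (p under 0.05, fold above 1.2). The methods tested each gene on its own; limma's shared variance replaced that because of 3 mice per group. Tests of the read counts with DESeq2 1.42.0 and edgeR 4.0.16, other filters, pseudocounts and scalings, and leaving out each mouse were alternatives, and the fits were checked on simulated counts. Libraries differed by far more than sampling noise (chi-square per degree of freedom at least 18.67 between any 2), so none was deposited in duplicate. Nothing in the labels says how mice of a group were related. The p-values set each group difference against the spread between these mice and take no account of relatedness.

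Positions came from RefSeq (GRCm38.p6; 24458 genes matched) and transcript sequences from GENCODE on GRCm38, aligned with Biopython 1.88. The members and gene lists were chosen with earlier results of these data known. Named besides the members and lists are the nearest tested genes, up to 10 chromosome 17 genes called in both knockout comparisons, and the gene most correlated with each member.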

Additional observations from a re-analysis of the deposited data

How the results depend on the processing

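The signs of the members' knockout differences held throughout: all 320 recomputed log2 fold changes kept their sign, and 33 moved by more than 1 SD. KO_ST lay outside the wild-type range in 9 members on RPM, on quantile-normalized values and leaving out 1 mouse, and in 10 without WT_ST replicate 2, a separation that the choice of members largely fixes; the check on quantile-normalized values and the regional shares without each KO_ST mouse or without copies of members were chosen after seeing the data. Counts of called genes depended on the test. For WT_ST against CT (355) they were 544 with a pseudocount of 0.1, 535 with edgeR, 552 with DESeq2, 700 with edgeR and no filter, 164 with an unmoderated test, and 277 to 544 leaving out 1 mouse (544 without CT replicate 3). For KO_ST against CT (512) they were 843 with edgeR and no filter, 248 unmoderated and 411 to 739 leaving out 1 mouse. For KO_ST against WT_ST (287) they were 445, 544 and 138 with the pseudocount of 0.1, edgeR without a filter and the unmoderated test, and 245 to 477 leaving out 1 mouse (477 without KO_ST replicate 3). The chromosome 17 non-members called numbered 54, 14 and 23 to 57 against CT (30) under edgeR without a filter, unmoderated and leaving out 1 mouse, and 33, 12 and 17 to 38 against WT_ST (20), with 57 and 38 both without KO_ST replicate 3. Genes called at an adjusted p under 0.05 by limma numbered 5, 9 and 22 in the order above, and by DESeq2 72, 113 and 76. Without quantile normalization the split of calls moved from 166 higher and 189 lower to 126 and 243 in WT_ST against CT, and from 221 and 291 to 148 and 371 in KO_ST against CT. With edgeR and DESeq2, which change the input and the test as well as the scaling, the first split was 177 and 358 and 189 and 363. Replicate numbers did not pair the mice (mean correlation of deviations -0.0101 for mice of the same number and 0.00494 for others). With the replicate block 399, 562 and 279 genes were called, 39 and 20 of them chromosome 17 non-members against CT and WT_ST, and the members past an adjusted p of 0.05 fell from 6 to 1 and from 9 to 1. The cause of these shifts was not tested.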
